A study of Mus musculus with 10 samples.

Results

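Complement is a system of serum proteins and cell-surface receptors that tags and lyses microbes and clears debris. 7 of its genes were followed here through the endothelial cells (ECs) of mouse long bone. They are the activation components Cfd, C3 and C4b, the regulators Serping1, Cd55 and Cd59a, and the C5a receptor C5ar2, and they are 7 of the 26504 genes listed in the count tables. The genes were listed by symbol, with no threshold on a measured value, and with earlier results of these data known.

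In the classical, lectin and alternative pathways, proteolytic steps converge on C3, whose cleavage coats surfaces and leads on to C5 cleavage, the C5a peptide and the membrane attack complex. Factor D, encoded by Cfd and also called adipsin, is the serine protease that cleaves factor B in the alternative pathway and is best known as a product of adipocytes. Host cells hold the cascade in check with soluble inhibitors in plasma and with proteins anchored in their own membranes, and the vessel wall is permanently exposed to both.

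The cells came from femur and tibia of Cdh5-mTnG mice on C57BL/6, a reporter line in which the Cdh5 promoter drives membrane tdTomato and nuclear GFP in ECs. Bones were digested, lineage-positive haematopoietic cells were depleted, and cells positive for both GFP and tdTomato were sorted and sequenced with droplet 3' chemistry. The 5 groups, of 2 libraries each, were juvenile (3 weeks, male and female), adult (12 weeks, female), aged (75 weeks, female), and adult females of 12 weeks given either parathyroid hormone (PTH), daily, or the bisphosphonate alendronate, every other day. All groups carried the same reporter, and the adult libraries served as the control of every comparison between groups, so these comparisons share their controls. Per the study's methods the animals of a group were pooled, so p-values measure the spread between libraries and not between mice.

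Of 47466 barcodes, 46283 passed the filter of 500 to 6000 genes and under 25% mitochondrial UMIs, and 43639 of these lay in EC clusters. The libraries held 10653583 to 28419323 UMIs, with a median of 3075 to 5149 UMIs per kept cell. From 3 to 88 barcodes were shared by a pair of libraries. PTH replicate 1 stood apart, since 2190 of its 2191 cells also passed a stricter filter of 1000 genes and 10% mitochondrial UMIs. The 4 types compared were sinusoidal bmECs of the marrow (19337 cells), metaphyseal mpECs (11830), arterial aECs (6828) and type R rECs of post-arterial capillaries (2934). Clustering left out the complement genes and Adipoq. The clusters were named from marker lists, so levels of those markers are no check of the names. Adipoq was in the lists for stromal cells and adipocytes. Stab2, a bmEC marker, stood at 1747 CPM (UMIs of a gene scaled to a fixed library total, here unadjusted and pooled over libraries) in bmECs. It was at 260, 83.0 and 80.0 CPM in mpECs, aECs and rECs. Cluster 3 of the mpECs (4196 cells) and cluster 5 of the bmECs (3378 cells) were shallow, with a median depth of 0.47 of the library median. Cell numbers were small for rECs in juvenile bone, with 82 cells in both libraries together.

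The members were not highest in the same vessels. Among the 4 types, Cfd, Cd55 and C5ar2 were highest in bmECs, Serping1 in aECs and Cd59a in rECs and aECs, while C3 and C4b were near the floor in each. Of the 5 members with enough UMIs to test between types, 3 were higher and 0 lower in bmECs than in the other 3 types (adjusted p below 0.05 in edgeR's quasi-likelihood test with Benjamini-Hochberg adjustment, and a log2 fold over 1), where 9.15% of all 12649 genes tested were higher and 8.78% lower. Their median log2 fold change was 3.27, against 0.02 for all genes tested. In mpECs 1 of 5 was higher and 2 were lower (4.47% and 3.57% of all genes), in aECs 1 was higher and 3 lower (6.25% and 5.52%), and in rECs 1 was higher and 4 lower (6.47% and 9.07%). Since each type was compared with the other 3, the decreases in mpECs, aECs and rECs in part repeat the increases in bmECs. Between pairs of types, 4 of 5 members were higher and 0 lower in bmECs than in mpECs (28.8% and 28.7% of all genes), 3 higher and 2 lower than in aECs (34% and 32.7%), and 4 higher and 1 lower than in rECs (31.3% and 27.3%), so these counts stand against a background in which most genes differ. They include Serping1, whose bmEC share of cells with a UMI was below the haematopoietic share and whose difference turned to -1.23 against mpECs and -0.52 against rECs when the types were gated on single UMIs. mpECs had 2 higher and 2 lower than aECs (24.4% and 23.2%) and 2 higher and 1 lower than rECs (24.8% and 20.3%), and aECs had 1 higher and 0 lower than rECs (19% and 14.1%).

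**Figure D1:**
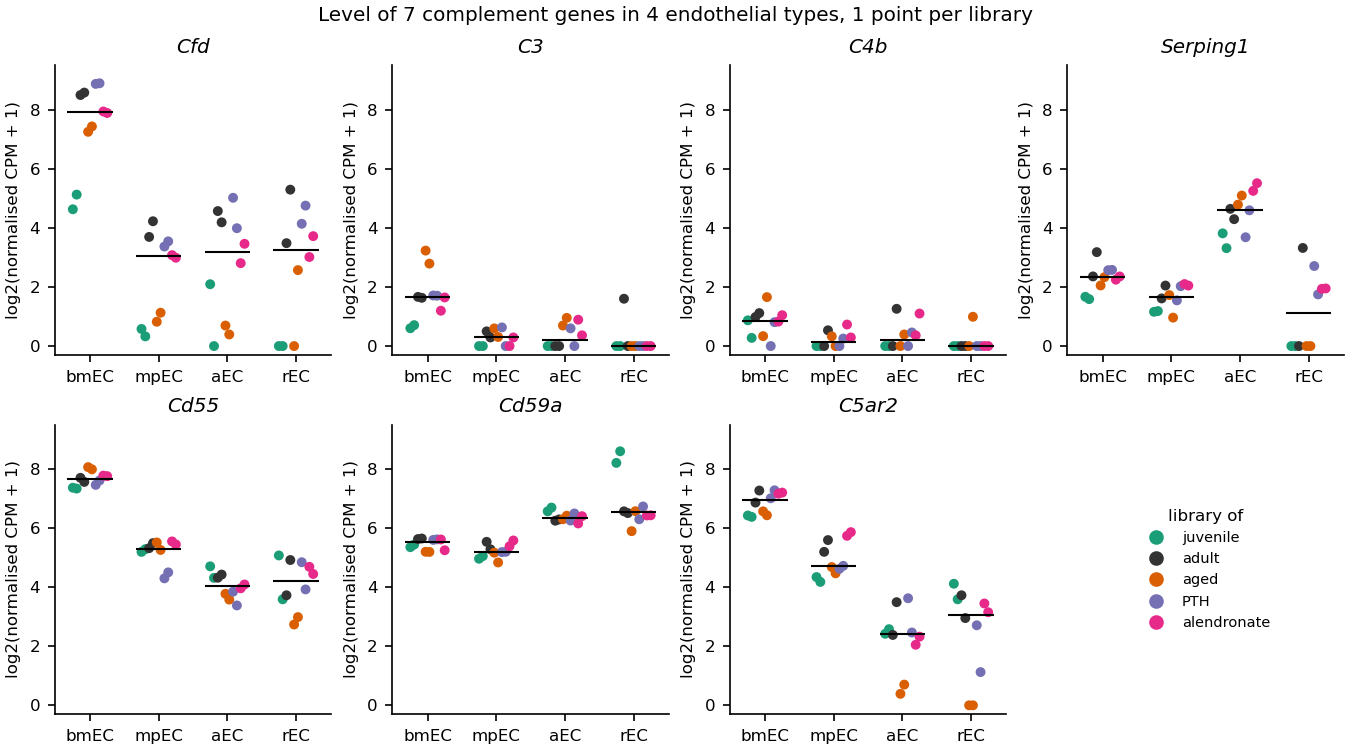
Normalised level of each member, as log2(CPM + 1), in bmECs, mpECs, aECs and rECs, with 1 point per library (10 libraries) coloured by group and a bar at the median. Cfd, Cd55 and C5ar2 sit highest in bmECs, with mean levels of 254, 204 and 118 CPM, Serping1 in aECs with 24.1 CPM, and Cd59a in rECs with 137 CPM. The Cd59a mean in rECs is raised by the juvenile libraries (293 and 385 CPM), and its median is 91.6 CPM, beside 80.5 CPM in aECs.

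Cfd was the member with the widest difference between types. In bmECs its normalised level ran from 23.7 CPM in the lowest library through a median of 240 to 473 CPM in the highest. It averaged 6.66 CPM in mpECs, 10.6 CPM in aECs and 11.5 CPM in rECs, and bmECs lay above each of these types within all 10 libraries. The fitted difference between bmECs and the other 3 types was 4.84 ± 0.14 on the log2 scale (SE, adjusted p = 4.42e-28), and the pairwise differences were 5.30 against mpECs, 4.74 against aECs and 4.49 against rECs. Of the 17737 Cfd UMIs in kept cells, 16385 (92.4%) fell in bmECs. The order among mpECs, aECs and rECs did not hold beyond the spread, with adjusted p of 0.0769, 0.0903 and 0.693 for the 3 pairs.

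The 300 bases around the Cfd start site (250 before, 50 after, from RefSeq on GRCm38.p6) are shown with those of Cd55 and C5ar2, since these 3 members were the ones higher in bmECs. Cfd lies at chr10:79890853-79892655 on the plus strand and its window at chr10:79890603-79890902. Cd55 lies at chr1:130439027-130462744 on the minus strand, with its window at chr1:130462695-130462994. C5ar2 lies at chr7:16234585-16244154 on the minus strand, with the window of its first start site at chr7:16244105-16244404. Capitals mark matches on either strand to a MAF recognition element core (TGCTGAC) or a C/EBP site (TTGCNNAA).
Cfd: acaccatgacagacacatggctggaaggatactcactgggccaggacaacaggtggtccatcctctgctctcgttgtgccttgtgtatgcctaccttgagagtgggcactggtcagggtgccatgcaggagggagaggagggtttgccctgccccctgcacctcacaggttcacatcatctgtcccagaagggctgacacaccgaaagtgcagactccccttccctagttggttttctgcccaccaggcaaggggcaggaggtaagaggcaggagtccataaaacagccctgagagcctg
Cd55: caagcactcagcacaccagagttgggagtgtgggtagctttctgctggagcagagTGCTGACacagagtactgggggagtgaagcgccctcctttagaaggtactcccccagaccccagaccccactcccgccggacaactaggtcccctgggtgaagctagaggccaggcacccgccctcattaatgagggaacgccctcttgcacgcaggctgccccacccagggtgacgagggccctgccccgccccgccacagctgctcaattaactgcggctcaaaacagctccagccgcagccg
C5ar2: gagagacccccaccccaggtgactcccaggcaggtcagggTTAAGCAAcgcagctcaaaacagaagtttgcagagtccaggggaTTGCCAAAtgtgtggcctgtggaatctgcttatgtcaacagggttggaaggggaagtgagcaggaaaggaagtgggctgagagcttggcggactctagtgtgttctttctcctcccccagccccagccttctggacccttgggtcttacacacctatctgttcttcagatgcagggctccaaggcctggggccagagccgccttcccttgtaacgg
The Cd55 window held 1 MAF core match, 195 bases before the start, which 4.67% of all 32851 promoter windows also held. The C5ar2 window held 2 matches to the C/EBP site, beginning 210 and 166 bases before the start, and 10.8% of all windows held at least 1. The Cfd window held neither, nor a GATA site (TGATAA or AGATAA, 18.6% of windows), an ETS site (CCGGAAGT, 3.89%), an E-box (CACGTG, 7.15%) or a STAT site (TTCNNNGAA, 8.3%). None of the 6 motifs searched was shared by the 3 windows. The window of a second C5ar2 start site (chr7:16242282-16242581, not shown) held no match to any of them.

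Cfd is also a transcript of marrow stromal and adipocyte-lineage cells, so its level in bmECs was set against Adipoq, the adiponectin gene that marks those cells. In the stromal cluster (260 cells) Cfd and Adipoq stood in a ratio of 0.153 Cfd UMIs per Adipoq UMI (95% interval 0.133 to 0.177, counting error only). In bmECs the ratio was 53.5 (47.8 to 60.2), with 16385 Cfd and 306 Adipoq UMIs. The bmEC ratio was above the stromal one in every group, from 9.82 (7.45 to 13.2) in juvenile bmECs to 203 (92.8 to 553) in aged ones, where only 6 Adipoq UMIs were counted. The stromal ratio is 1 value pooled over libraries, and Adipoq was among the markers that named the stromal cluster. That cluster also held endothelial transcripts, with Cdh5, the endothelial cadherin, at 731 CPM. The part of stromal RNA in bmEC Cfd was not tested. Over all groups, 23.9% of the 276 bmECs with an Adipoq UMI and 19.8% of the 19061 without one had a Cfd UMI. The direction differed between groups. In bmECs with an Adipoq UMI the share was lower in adult (25.6% against 27.4%) and alendronate bone (19.2% against 21.7%). It was higher in PTH (43.2% against 31.3%), juvenile and aged bone, the last with only 5 such cells. The bmECs with an Adipoq UMI were also deeper, with a median of 4257.5 against 3744 UMIs. Of the adipocyte list, 2 to 6 of 6 markers had a UMI in the bmECs of a library, and Plin1 was at 0 in 3 libraries.

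The bmEC level was then set against haematopoietic and erythroid cells. Whether these cells hold Cfd themselves was not tested, so they are not a known background. With every cell thinned to 1000 UMIs, 11.3% of bmECs (mean over 10 libraries, SD 6.73, range 1.118 to 20.1) had a Cfd UMI, against 2.13% of haematopoietic cells (9 libraries) and 0.936% of erythroid cells. Median depths before thinning were 3923 UMIs in bmECs, 8875 in haematopoietic cells and 6962 in erythroid cells. Without thinning the bmEC share was 20.5%. Thinning left out 557 bmECs with fewer UMIs. Shares in mpECs (0.674%), aECs (0.792%) and rECs (1.11%) were below the haematopoietic share, and the rEC share was above the erythroid one. In unadjusted CPM, adult Cfd was 14.8 in mpECs, 20.9 in aECs and 24.3 in rECs, against 17.4 in haematopoietic and 4.10 in erythroid cells. Cfd in those 3 types lay near the haematopoietic level and is not read as expression there, though expression is not excluded. Where its changes there pass a test and are counted below, they are changes of such a low level. bmECs were above mpECs, aECs and rECs in 10 of 10 libraries each (exact paired permutation test, two-sided, p = 0.00195, the smallest that 10 pairs allow; 0.00502 after Benjamini-Hochberg adjustment over 36 comparisons of shares). Against haematopoietic cells they were higher in 8 of 9 libraries, all but juvenile replicate 1 (p = 0.00781 by the same exact test, 0.0165 adjusted). Because the animals of a group were pooled, the 2 libraries of a group are not independent, though the exact test counts them as separate pairs.

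**Figure D2:**
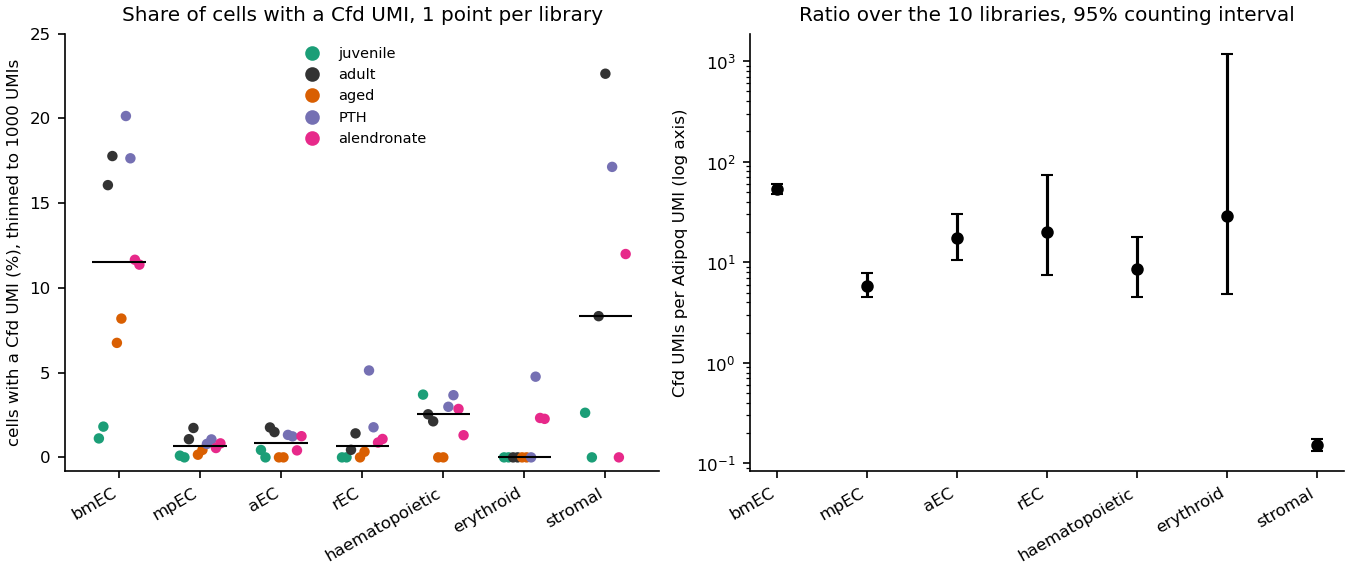
Share of cells with a Cfd UMI after thinning to 1000 UMIs, by cell type and library with a bar at the median, beside the ratio of Cfd to Adipoq UMIs by cell type with 95% counting intervals (log axis). bmECs average 11.3% of cells and a ratio of 53.5, haematopoietic cells 2.13% and stromal cells a ratio of 0.153.

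Within bmECs, Cfd had the largest fold change of the 6 members tested in juvenile against adult cells. Its level, normalised within bmECs, stood at 22.2 and 31.9 CPM in juvenile bone, 339 and 361 CPM in the adult ones and 124 and 142 CPM in the aged ones. With PTH it was 446 and 442 CPM, and with alendronate 227 and 219 CPM. The adult pair thus lay above the juvenile, aged and alendronate pairs and below the PTH pair, and no pair overlapped another. Cfd fell by 3.69 on the log2 scale (SE 0.08) in juvenile against adult bmECs (adjusted p = 2.01e-29), by 1.39 (SE 0.07) in aged bmECs (2.93e-19) and by 0.65 (SE 0.06) with alendronate (1.45e-10). With PTH it rose by 0.34 ± 0.06 (4.21e-05), a call lost with DESeq2 and with types gated on single UMIs, where the highest adjusted p was 0.256.

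A Cfd UMI was found, after thinning, in 1.47% of juvenile, 16.9% of adult, 7.47% of aged, 18.9% of PTH and 11.5% of alendronate bmECs. The PTH libraries (20.1 and 17.65%) overlapped the adult ones (16.07 and 17.8%). For 2 libraries against 2 an exact permutation test cannot go below p = 0.333, so these shares carry no test of their own. The juvenile share (73 of 5019 cells, exact 95% interval 1.14 to 1.83%) was above that of juvenile mpECs (1 of 1851 cells, 0.00137 to 0.301%). It was below that of juvenile haematopoietic cells, of which 1 of 27 had a Cfd UMI (3.70%, 0.0937 to 19.0%), an interval that holds the bmEC share. In unadjusted CPM, juvenile Cfd was 25.3 in bmECs, 2.67 in haematopoietic cells, 0.371 in mpECs and 0 in erythroid cells. In stromal cells it was 14.8 CPM in juvenile (63 cells), 351 in adult (101), 185 in PTH (47) and 110 in alendronate bone (48), and 0 in the 1 aged stromal cell. Stromal Cfd was thus lower in juvenile, PTH and alendronate than in adult bone, whereas bmEC Cfd rose with PTH, and its part in the bmEC differences was not tested. Adipoq in bmECs moved along with Cfd in part. It was 3.01 and 2.48 CPM in juvenile, 4.81 and 10.5 CPM in adult, 0.430 and 0.893 CPM in aged, 5.79 and 4.35 CPM in PTH and 3.00 and 3.71 CPM in alendronate bmECs. Its fitted changes were -1.46, -3.50, -0.66 (adjusted p = 0.193) and -1.17 in juvenile, aged, PTH and alendronate bmECs. The summed stromal list was 24.9 to 29.4 CPM in adult and 31.6 to 33.9 CPM in juvenile bmECs, and the adipocyte list 10.1 to 17.2 and 4.37 to 4.75 CPM, and their part in the Cfd difference was not tested.

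Counted over all members with enough UMIs in bmECs, 0 of 6 rose and 6 fell in juvenile against adult cells, where 19.2% of 13584 genes rose and 19.1% fell, with a median log2 change of -1.11 against 0.00 for all genes tested. In aged bmECs 2 of 6 rose and 4 fell, beside 33.4% and 33.2% of all genes. PTH raised 1 of 6 (5.32% of all genes rose and 4.03% fell), and alendronate lowered 1 of 6 (10.6% of all genes rose and 8.41% fell). With PTH and alendronate the call was Cfd in both cases, in opposite directions. C4b did not reach the minimum of UMIs.

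**Figure D3:**
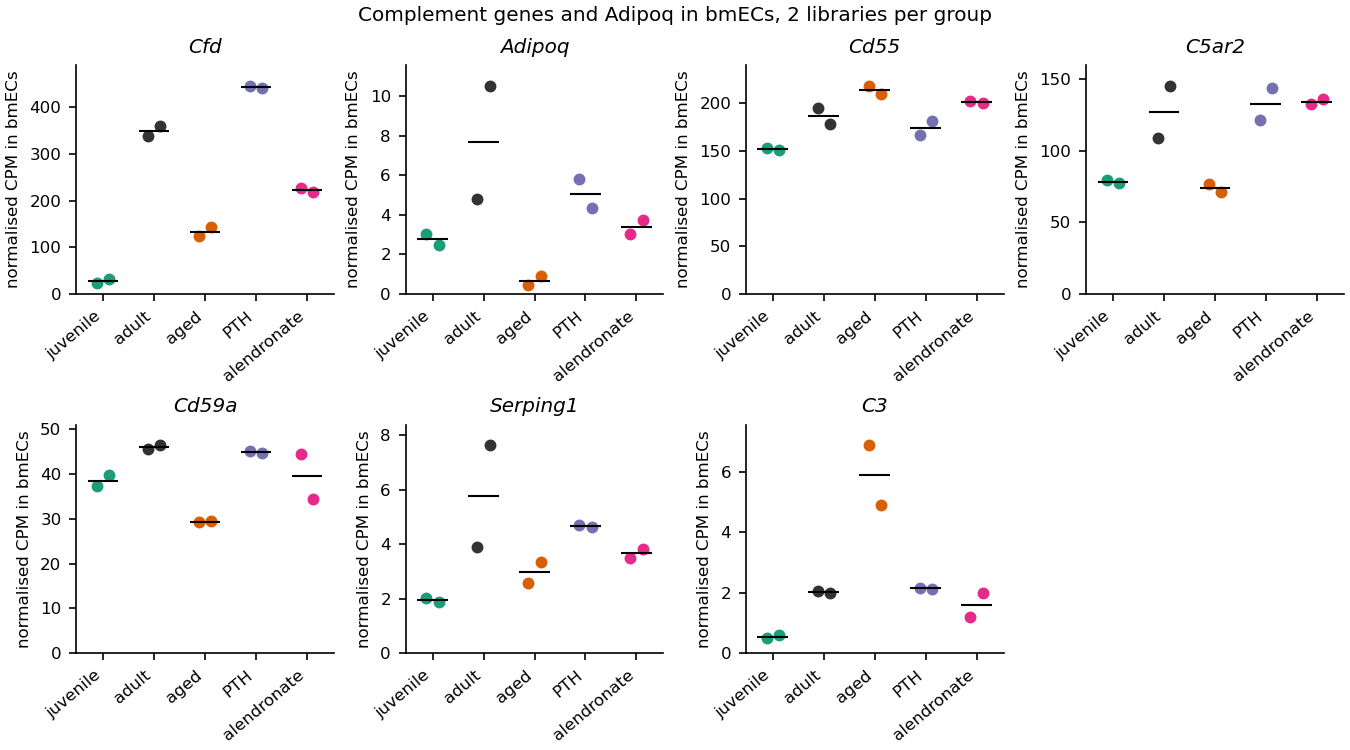
Normalised level (CPM) of the members and of Adipoq in bmECs, with 1 point per library and a bar at the mean of the 2 libraries of each group. Cfd runs from 22.2 to 31.9 CPM in juvenile to 442 to 446 CPM in PTH bmECs, Cd55 varies from 151 to 218 CPM, and C3 is highest in the aged pair at 4.91 and 6.88 CPM.

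C3, the component on which the pathways converge, was scarce in ECs. In bmECs it ran from 0.518 to 8.38 CPM over the 10 libraries, with a median of 2.15, and it averaged 0.216, 0.321 and 0.203 CPM in mpECs, aECs and rECs, too low for the comparison of types. By group, bmEC C3 was 0.486 and 0.596 CPM in juvenile, 2.05 and 1.99 CPM in adult, 6.88 and 4.91 CPM in aged, 2.17 and 2.11 CPM in PTH and 1.20 and 1.98 CPM in alendronate libraries. The aged pair lay above and the juvenile pair below all others. After thinning, 0.227% of bmECs had a C3 UMI, against 0.00918% of mpECs and 0 of 484 erythroid cells. Haematopoietic cells, at 5.53%, hold C3 themselves and so give no background for it. bmECs were above each of the other 3 EC types in 10 of 10 libraries, a count with no test. In the fit C3 rose by 1.54 ± 0.31 in aged bmECs (adjusted p = 5.51e-05) and fell by 1.87 (SE 0.44) in juvenile ones (0.000889).

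Other cell types held most C3. Haematopoietic cells had 818 of the 1300 C3 UMIs, and bmECs 150. C3 in haematopoietic cells was 18.3 CPM in adult and 255 CPM in aged bone, in unadjusted CPM summed over both libraries. In bmECs 9 or 10 of 10 markers of the haematopoietic list had a UMI in each library, and their sum was 10.4 to 15.9 CPM in juvenile, 50.9 to 57.8 in adult, 96.8 to 121 in aged, 26.4 in PTH and 82.0 to 84.9 CPM in alendronate libraries. Ptprc, which defines leukocytes, was at 0 in 1 juvenile library. Like C3, the list was lowest in juvenile and highest in aged bmECs, but it was below adult with PTH and above adult with alendronate, where C3 was not. Its part in the C3 differences was not tested. The C3 window (chr17:57228087-57228386, minus strand, GRCm38.p6) held 1 C/EBP match, 45 bases before the start, and is shown for that match, in capitals.
C3: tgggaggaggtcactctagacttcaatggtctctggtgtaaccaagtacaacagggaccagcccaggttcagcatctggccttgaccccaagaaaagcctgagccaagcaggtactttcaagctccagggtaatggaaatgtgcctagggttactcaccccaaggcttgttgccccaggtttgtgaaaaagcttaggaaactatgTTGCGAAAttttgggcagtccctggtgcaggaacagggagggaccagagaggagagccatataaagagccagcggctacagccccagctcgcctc

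C4b, a component of the classical and lectin pathways, averaged 0.818 CPM in bmECs and less in the other types, and it was tested only over all ECs summed, where no group differed (adjusted p from 0.14 to 0.978). Of its 352 UMIs, 215 (61.1%) lay in the 260 stromal cells. Its last 500 transcript bases were 98.4% identical to those of C4a over 499 aligned bases, so reads of the pair cannot be placed with certainty.

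Serping1 encodes C1 inhibitor, a plasma serpin that blocks the proteases of the classical and lectin pathways and of the contact system. Among the 4 types it was the arterial member. In aECs it ran from 8.93 CPM through a median of 23.5 to 44.6 CPM over the 10 libraries, against means of 4.13, 2.23 and 2.26 CPM in bmECs, mpECs and rECs. aECs lay above bmECs, mpECs and rECs within all 10 libraries, by 3.25 ± 0.17 against the other 3 types (adjusted p = 1.36e-19). After thinning, 2.47% of aECs had a Serping1 UMI, against 0.748% of haematopoietic cells, and the shares in bmECs, mpECs and rECs were below the haematopoietic share. These are means that weigh each library alike, and haematopoietic cells held only 21 Serping1 UMIs in all. Their share is therefore uncertain, and whether they hold Serping1 themselves was not tested, so they are not a known background.

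The gene was far higher outside the endothelium, and an unnamed EC cluster was above aECs too. Mural cells held 2638 of the 5807 Serping1 UMIs and stromal cells 1308, with 72.3% and 46.5% of thinned cells carrying one, and the unnamed EC cluster marked by Tagln, Ccl21a and Vwf (1779 cells) had a share of 8.39%. In aECs, 1 to 6 of the 6 mural markers had a UMI in a library, and Cspg4 was at 0 in 8 of 10 libraries. Serping1 rose by 0.90 ± 0.19 in alendronate against adult aECs (adjusted p = 0.00221), from 25.3 and 19.6 CPM in the adult libraries to 38.3 and 46.1 CPM. The pairs did not overlap. The Serping1 call was lost without adult replicate 2 and with gated types (highest adjusted p = 0.434). The summed mural list was 44.2 to 99.5 CPM in adult and 13.4 to 33.6 CPM in alendronate aECs. The part of mural or stromal RNA in the Serping1 difference was not tested.

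In bmECs Serping1 was 2.04 and 1.89 CPM in juvenile, 3.89 and 7.63 CPM in adult and 2.58 and 3.35 CPM in aged libraries. The adult pair was above both. Serping1 fell by 1.53 (SE 0.29) in juvenile (adjusted p = 5.33e-05) and by 0.94 (SE 0.33) in aged bmECs (0.012). These are low levels, with the mean thinned share in bmECs below the uncertain haematopoietic one. The aged call was lost under 5 alternatives, among them without adult replicate 2 and without aged replicate 1.

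Cd55, decay-accelerating factor, is a membrane-anchored regulator that takes apart the convertases cleaving C3 and C5. It ran between 160.2 and 265 CPM in bmECs, with a median of 200.1 over the 10 libraries. mpECs averaged 36.6 CPM, aECs 16.01 CPM and rECs 18.5 CPM, and the lowest bmEC library lay above the highest library of every other type. Cd55 was higher in bmECs than in the other 3 types by 3.27 ± 0.10 (adjusted p = 4.4e-27). Among the 4 types mpECs came next, above aECs by 1.28 (6.76e-09) and above rECs by 1.15 (5.04e-05), while aECs and rECs did not differ beyond the spread (-0.13 ± 0.26, 0.769). EC clusters outside the 4 types were not in this fit. The unnamed cluster marked by Tagln, Ccl21a and Vwf held 541 Cd55 UMIs in 1779 cells. Proliferating ECs held 354 in 931 cells, beside 1701 in 11830 mpECs, so mpECs are not second among all EC clusters. After thinning, 16.9% of bmECs had a Cd55 UMI, against 3.23% of haematopoietic and 2.23% of erythroid cells. The mpEC share (3.48%) was close to the haematopoietic one, and the aEC (1.46%) and rEC (2.33%) shares were below it. Whether haematopoietic and erythroid cells hold Cd55 themselves was not tested, so they are not a known background. The stromal cluster, with Cdh5 at 731 CPM, stood at 10.96%.

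Cd55 changed little with age or drug in bmECs. It was 153 and 151 CPM in juvenile, 195 and 178 CPM in adult, 218 and 209 CPM in aged, 167 and 181 CPM in PTH and 202 and 200.2 CPM in alendronate bmECs. It fell by 0.29 (SE 0.05) in juvenile cells (adjusted p = 1.02e-05) and rose by 0.20 ± 0.05 in aged cells (0.00155), and the aged call was lost without aged replicate 1 and with no filter on low counts. The thinned share of bmECs with a Cd55 UMI was 16.01% in adult and 23.2% in aged bone. PTH and alendronate gave -0.08 ± 0.05 (0.417) and 0.11 ± 0.05 (0.12). The paralog Daf2 (Cd55b), 98.2% identical to Cd55 over 489 of its last 500 transcript bases, averaged 0.657 CPM in bmECs. Whether reads on both were counted or dropped was not given in the sources used here. A gene on the other strand, Gm16083, overlaps Cd55 exons, and the strand setting was not given either.

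Outside the sinusoids, Cd55 was lower with PTH in mpECs, at 19.2 and 21.996 CPM against 40.3 and 45.8 CPM in adult libraries (-1.02 ± 0.12, adjusted p = 1.23e-07), a call lost with gated types (0.212). In aECs it was 13.9 and 9.72 CPM with PTH and 12.3 and 10.7 CPM in aged cells, against 20.01 and 21.6 CPM in adult cells (-0.92 and -0.85, 0.00969 and 0.00207). The groups did not overlap, and the thinned shares of mpECs and aECs were close to or below the haematopoietic share. The PTH call in aECs was lost without adult replicate 2, without PTH replicate 2 and in 2 further alternatives (highest adjusted p = 0.39). The aged change in aECs turned to 0.44 without integration of the libraries, where aged aECs went from 616 and 617 to 1274 and 1308 cells. Markers of bmECs moved the same way. Their 7-gene sum in mpECs was 946 to 1039 CPM in adult and 415 to 452 CPM in PTH libraries, and in aECs it was 502 to 549 CPM in adult, 305 to 468 CPM in PTH and 154 to 165 CPM in aged libraries. The part of sinusoidal RNA or cells in these differences was not tested.

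Cd59a encodes the membrane-anchored protein that keeps C9 from completing the membrane attack complex. Unlike the other members it was spread over all 4 types, with a lower level in bmECs and mpECs and a higher one in aECs and rECs. Over the 10 libraries, normalised across the 4 types, it ran from 35.5 to 49.0 CPM in bmECs, 27.5 to 46.7 CPM in mpECs, 70.1 to 102 CPM in aECs and 58.4 to 385 CPM in rECs, with medians of 44.8, 35.5, 80.5 and 91.6 CPM. Every aEC and rEC library lay above every bmEC and mpEC library. rECs were higher than the other 3 types by 1.03 ± 0.14 (adjusted p = 9.88e-08), just past the fold threshold of 1, and fell under it without either juvenile library (each in turn) or with no filter on low counts. bmECs were lower than aECs by 1.00 (6.4e-09) and lower than rECs by 1.30 (4.33e-09). aECs and rECs (-0.30 ± 0.16, 0.155) and bmECs and mpECs (0.19 ± 0.13, 0.203) did not differ beyond the spread.

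Shares of cells gave the same order, with a Cd59a UMI in 12.5% of rECs, 7.95% of aECs, 3.66% of bmECs and 3.57% of mpECs after thinning, against 1.95% of haematopoietic and 2.72% of erythroid cells. The unnamed cluster marked by Tagln, Ccl21a and Vwf had 14.9%. Normalised within rECs, Cd59a stood at 325 and 439 CPM in juvenile bone and at 99.7 and 95.1 CPM in adult bone. It was 60.8 and 96.8 CPM in aged, 86.0 and 109 CPM in PTH and 86.7 and 87.6 CPM in alendronate rECs. Only the juvenile pair stood apart. Cd59a rose by 1.93 ± 0.26 in juvenile against adult rECs (adjusted p = 5.21e-09), and the difference from the change in bmECs was 2.15 ± 0.27 (2.18e-09). The juvenile value rests on 82 cells, of which 21 of 81 with enough UMIs had a Cd59a UMI (25.9%, exact 95% interval 16.8 to 36.9%), against 37 of 436 adult rECs (8.49%, 6.05 to 11.5%). With types gated on single UMIs the adjusted p was 0.051.

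The remaining Cd59a changes were small decreases. In bmECs it was 37.3 and 39.8 CPM in juvenile, 45.7 and 46.5 CPM in adult and 29.2 and 29.5 CPM in aged libraries, and it fell by 0.26 (SE 0.09, adjusted p = 0.0172) and 0.65 (SE 0.11, 3.87e-06). The juvenile call was lost under 5 alternatives, among them without juvenile replicate 1 and without either adult library in turn. In mpECs Cd59a fell by 0.43 (0.00974) in juvenile and by 0.55 (0.000308) in aged cells, the former call being lost without juvenile replicate 1 and without adult replicate 1 (highest adjusted p = 0.208). Its paralog Cd59b averaged 0.759 CPM in bmECs and 3.89 CPM in rECs, and the aligned ends of the pair were 77.9% identical.

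C5ar2 encodes the second receptor for C5a, a relative of C5ar1 that does not couple to G proteins. It was a gene of bmECs first and mpECs second. Over the 10 libraries it ran from 82.0 through 121 to 154 CPM in bmECs (lowest, median and highest) and from 17.1 through 24.96 to 57.0 CPM in mpECs. aECs averaged 4.76 CPM and rECs 7.07 CPM. bmECs were higher than the other 3 types by 3.73 ± 0.14 (adjusted p = 1.09e-24) and than mpECs alone by 1.89 ± 0.13 (6.35e-16). mpECs were higher than aECs by 2.93 (4.52e-14) and than rECs by 2.60 (3.21e-08), and the last 2 types did not differ beyond the spread (-0.33 ± 0.49, 0.675). The thinned shares were 9.52% in bmECs, 3.04% in mpECs, 0.521% in aECs and 0.247% in rECs, against 2.01% in haematopoietic and 0.762% in erythroid cells. The aEC and rEC shares were below both, and C5ar2 is not read as expression there. Whether haematopoietic and erythroid cells hold C5ar2 themselves was not tested, so they are not a known background. An annotated gene on the same strand, Gm26473, overlaps exons of C5ar2.

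C5ar2 in bmECs was 79.5 and 77.2 CPM in juvenile, 109 and 145 CPM in adult and 76.8 and 70.7 CPM in aged libraries. With PTH it was 122 and 144 CPM and with alendronate 132 and 136 CPM. The juvenile and aged pairs lay below both adult libraries, and the treated pairs lay between the adult libraries. C5ar2 fell by 0.69 (SE 0.08) in juvenile (adjusted p = 9.58e-09) and by 0.78 (SE 0.10) in aged bmECs (8.57e-09), with changes of 0.10 ± 0.08 (0.534) with PTH and 0.08 ± 0.08 (0.504) with alendronate.

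The sinusoidal clusters were not alike for C5ar2. In 1 of the 5 bmEC clusters (cluster 4, 3878 cells, with Slc39a1, Spry2 and C5ar2 itself among its leading genes) C5ar2 stood at 251 CPM in unadjusted sums, against 62.4 to 110 CPM in the other 4. In that cluster it was 270.2 CPM in adult and 103 CPM in aged cells, while in cluster 0 (9304 cells) it was 63.3 CPM in adult and 92.4 CPM in aged cells. It was also higher in aged than in adult cells of cluster 7 (104 against 65.2 CPM) and lower in clusters 5 and 14. These are unadjusted CPM, in which aged cells read higher against adult ones than in the normalised fit. C5ar2 over all bmECs was 92.5 CPM in aged and 119 CPM in adult cells unadjusted, against means of 73.8 and 127 CPM normalised. The higher aged values in clusters 0 and 7 were not tested on the normalised scale, and they are not read as increases. The mix of clusters differed too, with cluster 4 at 24.0% of adult and 11.7% of aged bmECs and cluster 5 at 18.7% and 34.9%, and how much of the aged C5ar2 decrease each difference carries was not tested. Cluster 4 was 19.0% of juvenile bmECs, and C5ar2 was lower in juvenile than in adult cells of all 5 clusters. Pooled over groups, Cfd was 192 to 285 CPM in the 5 clusters and Cd55 166 to 249 CPM. In aged cells Cfd ran from 84.2 CPM in cluster 5 to 252 CPM in cluster 7, and aged against adult it was 84.2 against 383 CPM in cluster 5 and 217 against 278 CPM in cluster 4. It was lower in aged than in adult cells of all 5 clusters. Cfd was at or below 41.7 CPM in all 5 clusters of juvenile bone. The clusters were made from the same cells, so these values are a description with no test.

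**Figure D4:**
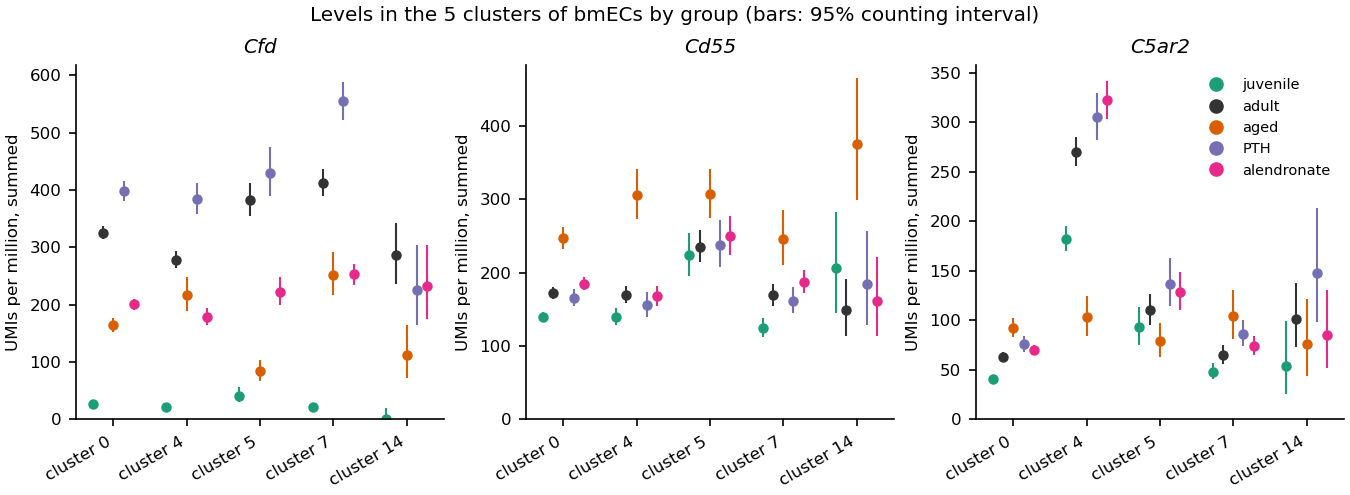
Level (CPM, sums of both libraries, 95% counting intervals) of Cfd, Cd55 and C5ar2 in the 5 bmEC clusters by group. Over all groups C5ar2 peaks in cluster 4, at 251 CPM, but in aged cells it is 103 CPM there and 104 CPM in cluster 7. Juvenile Cfd stays at or below 41.7 CPM in each cluster.

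In mpECs C5ar2 was 19.8 and 17.7 CPM in juvenile, 36.9 and 49.3 CPM in adult and 23.2 and 20.2 CPM in aged libraries. It was 24.3 and 25.8 CPM with PTH and 54.3 and 59.1 CPM with alendronate. Juvenile, aged and PTH pairs lay below the adult pair, and the alendronate pair above it. The changes were -1.19 ± 0.15 (adjusted p = 1.42e-07), -0.98 ± 0.14 (3.52e-07), -0.76 ± 0.13 (4.12e-05) and 0.40 ± 0.12 (0.0221). The aged change was -0.01 without integration of the libraries, and the alendronate change turned to -0.63 with types gated on single UMIs and lost its call without adult replicate 1 and without alendronate replicate 2. As for Cd55, the sum of bmEC markers in PTH mpECs was under that in adult mpECs, and its part was not tested.

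Of the members tested in mpECs, 0 of 5 rose and 3 fell in juvenile (13.8% and 13.7% of 12210 genes rose and fell), 0 rose and 3 fell in aged (33.3% and 32.7%), 0 rose and 2 fell with PTH (7.29% and 7.43%), and 1 rose and 1 fell with alendronate (7.27% and 4.86%). In aECs 0 of 5 rose and 1 fell in juvenile (7.35% and 7.37% of 11326 genes), 0 rose and 3 fell in aged (28.5% and 29.6%), 0 rose and 1 fell with PTH (3.36% and 3.7%) and 1 rose and 1 fell with alendronate (4.15% and 3.11%). In rECs only 3 members were testable, of which 1 rose in juvenile (1.58% of 8537 genes rose and 1.41% fell), 2 fell in aged cells (23.8% and 23.1%), and none passed the test with PTH or alendronate (3.22% and 2.74% of genes changed in either direction). Cfd accounts for 7 of these decreases, all at the low levels described above. It was 12.4 and 18.4 CPM in adult mpECs and 0.725 and 1.14 CPM in aged ones, for example. In rECs the aged decreases of Cd55 and Cfd were lost without adult replicate 2 (highest adjusted p 0.37 and 0.125). C5ar2 in aECs fell by 3.91 in aged bone, also from a low level, a change that turned to 0.40 without integration.

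**Figure D5:**
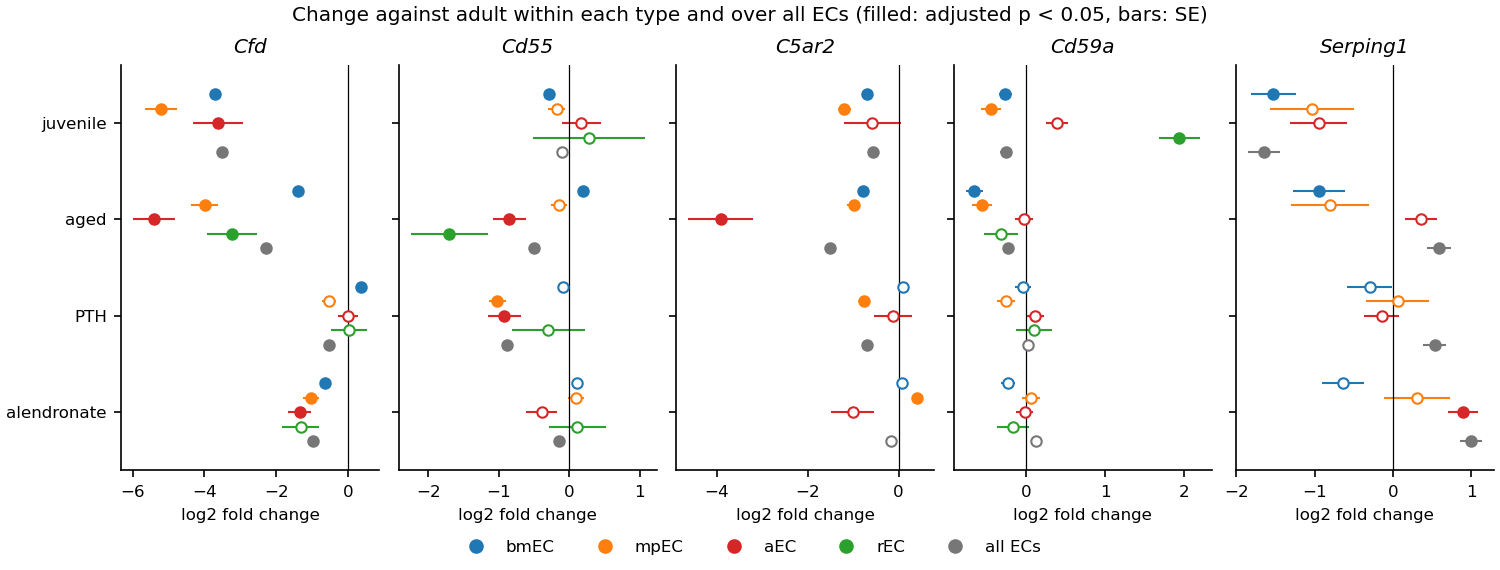
Log2 fold change of 5 members against adult, by group, within each type and over all ECs, with standard errors as bars and filled points where the adjusted p is below 0.05. In bmECs Cfd lies at -3.69, -1.39, 0.34 and -0.65 for juvenile, aged, PTH and alendronate, and the rEC Cd59a change in juvenile bone stands out at 1.93.

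Whether a member changed differently in another type than in bmECs was tested as the interaction of type and group, over 13430 genes and 6 members. In mpECs 0 of 6 differences were positive and 1 negative in juvenile (3.73% and 3.19% of all genes), 0 and 2 in aged (6.73% and 5.24%), 0 and 3 with PTH (0.938% and 2.6%) and 0 and 0 with alendronate (0.357% and 0.32%). In aECs 1 and 0 differed in juvenile (2.8% and 2.11%), 2 and 3 in aged (9.29% and 7.28%), 0 and 1 with PTH (0.566% and 1.41%) and 1 and 0 with alendronate (0.871% and 0.946%). In rECs the counts were 1 and 0 in juvenile (0.864% and 0.819%), 0 and 2 in aged (4.73% and 3.16%; 1 of them C5ar2, which was too low to be tested within rECs), 0 and 0 with PTH (0.521% and 0.789%) and 0 and 0 with alendronate (0.536% and 0.357%). The PTH differences in mpECs were Cd55 (-0.94 ± 0.13, adjusted p = 3.68e-08), C5ar2 (-0.87 ± 0.14, 6.49e-07) and Cfd (-0.88 ± 0.21, 0.00359), and the last was lost without adult replicate 2. The counts include Cfd in mpECs and aECs and C5ar2 in aECs and rECs, at low levels not read as expression in those types.

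Summed over all ECs, the members mix changes within types with changes in how many cells each type contributes. bmECs made up 54.9% of adult, 64.3% of juvenile, 23.2% of aged, 29.4% of PTH and 41.3% of alendronate ECs. Cfd over all ECs was 193 and 208 CPM in adult and 146 and 133 CPM in PTH libraries, a decrease of 0.53 (SE 0.07, adjusted p = 6.06e-06), whereas in bmECs it rose with PTH. Cd55 (-0.88, 2.46e-11) and C5ar2 (-0.69, 7.53e-06) fell with PTH over all ECs and did not pass the test in bmECs. Serping1 was 7.25 and 9.60 CPM in adult ECs and 15.1 and 18.5 CPM with alendronate (1.00 ± 0.14, 1.93e-05), with aECs at 12.0% and 18.3% of the ECs. Of the 7 members, 0 rose and 5 fell in juvenile (20.9% and 21.9% of 15311 genes), 2 rose and 4 fell in aged (37.3% and 36.4%), 1 rose and 3 fell with PTH (14.7% and 14.4%) and 1 rose and 2 fell with alendronate (14.5% and 12.8%). Of these, the aged C3 increase was lost under 9 of 15 alternatives, and the Serping1 increase in aged (without adult replicate 1) and PTH cells (without adult replicate 1, without PTH replicate 2), the Cd55 decrease with alendronate (without adult replicate 1, without alendronate replicate 2) and the Cd59a decreases in juvenile (without juvenile replicate 1) and aged cells (without aged replicate 1) were lost when those libraries were left out. In these bulk-like sums, fewer cells of a type and less RNA per cell cannot be told apart.

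Another 43 complement genes were listed in the tables, and 10 had enough UMIs to be compared between types. In bmECs 3 of the 10 were higher and 1 lower (9.15% and 8.78% of all genes), with a median log2 difference of 0.07. C5ar1, the G-protein-coupled C5a receptor and so the partner of C5ar2, was 79.9 CPM in bmECs, 13.5 in mpECs, 3.83 in aECs and 3.05 CPM in rECs, higher in bmECs than in the other 3 types by 4.10 ± 0.15 (adjusted p = 3.56e-25). Unlike C5ar2 it rose in bmECs with PTH (0.49 ± 0.07, 8.69e-06) and with alendronate (0.76 ± 0.06, 6.59e-11), and it fell in juvenile (-0.40, 2.35e-05) and aged cells (-0.24, 0.0127). The difference between the 2 receptors was not tested.

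Clu, clusterin, an inhibitor of the terminal pathway and a general chaperone, was arterial like Serping1, at 583 CPM in aECs and 14.01, 20.8 and 70.9 CPM in bmECs, mpECs and rECs (4.54 ± 0.12 in aECs against the other 3, 6.97e-29). It rose with alendronate in bmECs, mpECs and aECs (0.95, 1.63 and 0.74) and with PTH in bmECs, mpECs and rECs (0.92, 1.79 and 1.06). In unadjusted CPM it was 31.8 in haematopoietic cells, above bmECs (12.2) and mpECs (23.7), and 4.77 in erythroid cells. In aECs it was 627 CPM in adult, 530.1 with PTH and 1044 with alendronate, and aECs made up 12.0%, 19.4% and 18.3% of ECs. Their part in the changes of the other types was not tested. Colec12, a scavenger collectin, was 23.1 CPM in bmECs and 20.8 CPM in mpECs against 7.89 and 4.33 CPM in aECs and rECs, and rose in aged bmECs (0.95 ± 0.13, 4.68e-08). Cr1l, the rodent membrane regulator also called Crry, was 131, 138, 162 and 177 CPM in bmECs, mpECs, aECs and rECs. It was lower in bmECs than in aECs (-0.37, 9.93e-08) and rECs (-0.47, 1.81e-08), and lower in mpECs than in both (-0.26, 8.93e-05 and -0.36, 5.51e-06). It fell in juvenile (-0.44) and aged bmECs (-0.43). C1qbp, a mitochondrial protein that also binds C1q, was 73.5 to 81.6 CPM in all 4 types and fell by 0.93 in aged bmECs. Among 15 other complement genes tested in bmECs, 3 rose and 4 fell in juvenile (19.2% and 19.1% of all genes), 5 rose and 6 fell in aged (33.4% and 33.2%), 2 rose and 0 fell with PTH (5.32% and 4.03%), and 3 rose and 2 fell with alendronate (10.6% and 8.41%).

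Genes among those whose level followed a member most closely over the 40 sums of 4 types in 10 libraries were listed as a description, the sums sharing libraries and types. For Cfd they were Dclk1 (Pearson r = 0.92) and Tkt (0.88), for Cd55 Ctnnal1, Sirpa and Mmrn1 (0.96 each), and for C5ar2 Mrc1 (0.96), Sepp1 and Snx5 (0.95 each). Cd59a was closest to Bnip3 (0.87), Gatsl3 (0.86) and Fas (0.85), and Serping1 to Rfk (0.91), Mgp (0.90) and Gkn3 (0.88). C3 (Mmrn2, 0.82) and C4b (Nod1, 0.60) were near the floor and their lists are not read further.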

How the data were processed

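UMI counts per gene and cell were deposited for 10 libraries, 2 for each of 5 groups. Per the labels and the submitters' processing notes, the authors made these counts with UMI-tools 1.1.2, STAR 2.7.10a and featureCounts 2.0.3 on mm10. Strand setting, annotation version and treatment of multiply mapped reads were not given in the sources used here. Kit versions 2 and 3 were both named, without saying which library had which, and an effect of the kit on the aged libraries cannot be told apart from age. The 276 listed symbols that start with U had UMIs only in the aged libraries (1.52% and 1.53% of UMIs) and were left out.

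Cells with 500 to 6000 genes and under 25% mitochondrial UMIs were kept, integrated with Seurat 5.3.0 (2000 variable features without complement genes and Adipoq, 30 components, resolution 0.5) and named from marker lists. No doublets were removed in the reported values. UMIs were summed per type and library (at least 20 cells) and tested with edgeR 4.0.16, quasi-likelihood with TMM factors and Benjamini-Hochberg adjustment over all genes passing its filter on low counts, with library as a block between types and no block between groups. The scripts were tested on simulated data. R 4.3.3, Python 3.11.15, DESeq2 1.42.0 and scipy 1.17.1 were used, and scanpy 1.11.5 for doublet scores. CPM were normalised within each fit, so a level differs slightly between the fit across types and that within a type. Intervals cover counting error only. Deviations of same-numbered libraries of different groups correlated at -0.06 to 0.27 over 10 pairs of groups and 11095 genes. The main fits did not pair libraries by number.

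The members, gene lists and comparisons were chosen with earlier results of these data known. Named genes were the 7 members, other listed complement genes with a mean of at least 20 CPM in a type, and the 3 genes most correlated with each member among those of at least 20 CPM, of which 1 is not reported here. Alternatives covered resolution, integration, a gate requiring exactly 1 of the marker sets Stab2, Gja4, Ramp3 or Aplnr, and Timp4 or Aqp7 per cell, a stricter cell filter, DESeq2, RLE factors, no count filter, each library left out, a replicate block, and, chosen after seeing the data, removal of the highest doublet scores.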

Additional observations from a re-analysis of the deposited data

Results flagged for a closer look

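17 comparisons passed the test of whether a member's change against adult differed between bmECs and another type. It was the interaction of type and group in edgeR's quasi-likelihood test, with Benjamini-Hochberg adjustment over 13430 genes. Those at low levels are named below and are not read as differences in expression. Each contrast tested 6 members. Each value is the log2 change in the other type minus that in bmECs. All 4 contrasts share the adult libraries.

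In mpECs with PTH, Cd55 (-0.94 ± 0.13, adjusted p = 3.68e-08), C5ar2 (-0.87 ± 0.14, 6.49e-07) and Cfd (-0.88 ± 0.21, 0.00359) had negative differences, in a contrast where 2.6% of all genes had one. The Cfd value was lost without adult replicate 2. In juvenile mpECs the difference was -0.49 for C5ar2 (0.0433), where 3.73% of all genes had a positive and 3.19% a negative one. In aged mpECs it was -0.43 for Cd55 (0.0161) and -2.68 for Cfd (1.59e-06), beside 6.73% and 5.24% of all genes.

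In aged aECs the differences were -3.29 for C5ar2 (2.80e-05), -1.16 for Cd55 (4.65e-05), -4.18 for Cfd (3.91e-09), 0.51 for Cd59a (0.0184) and 1.17 for Serping1 (0.0265). There 9.29% of all genes had a positive and 7.28% a negative difference. In juvenile aECs Cd59a differed by 0.65 (0.00875), in PTH aECs Cd55 by -0.85 (0.025), and in alendronate aECs Serping1 by 1.53 (0.00196), the last lost without adult replicate 2. In these contrasts, in that order, 2.8%, 0.566% and 0.871% of all genes had a positive difference. The negative shares were 2.11%, 1.41% and 0.946%. Without integration the aged changes within aECs turned to 0.40 for C5ar2, 0.44 for Cd55 and -0.75 for Serping1. Cfd in mpECs and aECs and C5ar2 in aECs and rECs were at low levels and are not read as expression there.

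In juvenile rECs Cd59a differed by 2.15 ± 0.27 (2.18e-09), with 82 juvenile rECs behind it. There 0.864% of all genes had a positive and 0.819% a negative difference. In aged rECs Cd55 differed by -2.09 (0.00225, lost without adult replicate 2) and C5ar2 by -7.66 (0.0028), beside 4.73% of all genes with a positive and 3.16% with a negative difference. C5ar2 was too low to be tested within rECs and entered this test through the other types. It had no UMI in either aged rEC sum, so the fitted value depends on the prior count, is not a bound, and is not read as a difference.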

How the results depend on the processing

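The totals of calls that follow do not say which calls were kept. In the comparisons of 1 type with the other 3, pairs of types left aside, members had 15 calls. There were 12 with gated types, 14 without integration, 16 with DESeq2 or no count filter, and 14 to 16 with each library left out. Between groups within types they had 34 calls, against 25 with gated types, 26 with DESeq2, 37 without integration or without the highest doublet scores, and 30 to 36 with each library left out. With the replicate block the counts were 36 within types and 18 over all ECs, against 34 and 18 without it. Over all ECs DESeq2 made 14 calls, and leaving out each library 15 to 18. Differences of changes between types numbered 17, against 18 with RLE factors and 10 to 18 with each library left out (10 without adult replicate 2). The Cfd to Adipoq ratio in bmECs of 53.5 was 66.3 with gated types, 55.2 with the stricter filter, and 48.1 to 62.2 with each library left out. The thinned bmEC share of Cfd of 11.3% was 15.95% at 2000 UMIs and 20.5% not thinned. With gated types Serping1 turned to 0.24 in mpECs against the other 3, to -1.23 in bmECs against mpECs and to -0.52 against rECs, and C5ar2 with alendronate in mpECs to -0.63, and the cause was not tested. Without integration, C5ar2, Cd55 and Serping1 in aged aECs turned to 0.40, 0.44 and -0.75, where aged aECs went from 616 and 617 cells to 1274 and 1308 and aged mpECs from 649 and 690 to 25 and 36, so other cells carried these names. Of 1838 values of 106 called comparisons under alternatives, 1733 kept direction and call, 99 lost the call and 6 reversed. Counted by comparison, only 64 of the 106 kept direction and call under every alternative. Of 1231 values of 65 comparisons not called, 44 gained a call and 1 reversed, and 40 of the 65 comparisons stayed the same under every alternative.

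Counts over all genes moved by more than 1.5 times mainly with gated types and DESeq2, and without integration in aged mpECs (8058 genes to 2090). Gated types gave 2579 in place of 4189 genes for aECs against rECs, 3339 in place of 5710 for mpECs against rECs, and 564 in place of 1271 for PTH bmECs, where DESeq2 gave 594. For alendronate bmECs 2578 genes became 1316 gated and 1071 with DESeq2, for juvenile bmECs DESeq2 gave 3001 in place of 5205, and for PTH mpECs 1797 became 618 gated and 852 with DESeq2. For rECs, 255, 275 and 234 genes in juvenile, PTH and alendronate cells became 60, 33 and 50 when gated. C3 and C4b were too shallow to compare between types.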

Other observations

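Cfd was uneven from cell to cell within bmECs. In a second random thinning to 1000 UMIs, drawn apart from the one behind the shares above, its variance was 3.44 times its mean, against 1.07 for Cd55, 1.22 for C5ar2 and 1.02 for Cd59a, and single cells held up to 13 Cfd UMIs. In juvenile bmECs, where 1.67% of these cells had any, the cells with a Cfd UMI still held 1.92 on average, against 2.16 in adult cells.

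bmECs with and without a Cfd UMI were then set against each other within each library, a split chosen after the values were seen and made from the same cells. Of 9013 genes tested with edgeR, 71 were higher and 155 lower (939 at an unadjusted p below 0.05). Among the higher was Cxadr, the coxsackievirus and adenovirus receptor and a bmEC marker (393 against 232 CPM, higher in 10 of 10 libraries). The bmEC markers Rgs4 (0.36, adjusted p = 4.13e-06) and Vcam1 (0.18, 0.0225) were also higher, and Stab2 did not pass the test (0.12, 0.294). Gm10800, a leading gene of the shallow bmEC cluster 5, was lower (2.80 against 163 CPM). The part of clusters and cell quality in the split was not tested. Aplnr, the apelin receptor and an mpEC marker, was lower in 10 of 10 libraries (111 against 267 CPM). Cd55 (-0.04, adjusted p = 0.958), C5ar2 (-0.16, 0.702) and Cd59a (-0.30, 0.662) did not pass the test.

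The C1q chains, known as products of macrophages, were low in bmECs and higher in juvenile than adult cells, C1qb at 5.16 against 1.42 CPM (1.83 ± 0.30, adjusted p = 6.77e-06). These 3 genes were chosen for mention after their values were seen.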
